A study of Mus musculus with 2 samples.

Results

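The urokinase (*Plau*) and tissue (*Plat*) plasminogen activators, the urokinase receptor (*Plaur*) and the inhibitors protease nexin-1 (*Serpine2*) and plasminogen activator inhibitor 2 (*Serpinb2*) were followed through single cells of the mouse cornea before and after an epithelial wound. The members are these 5 genes, chosen by name among the 20198 genes of the count matrix, and each was read in every cluster of cells of the deposited table and in each library. The unwounded group (UW) was 1 library from the pooled corneas of 4 mice, and the wounded group (W) was 1 library from 4 mice taken 24 h after a 2.5 mm circle of central epithelium was scraped off. By the study's methods the mice were male and 6 to 8 weeks old. For wounding, the methods name pentobarbital anaesthesia, topical procaine, a fluorescein stain and ofloxacin on the wound, and whether UW mice received any of them was not given in the sources used here. Neither the labels nor the methods give a genetic change for these groups, and the strain was not given in the sources used here. In both groups the epithelial sheet was loosened with dispase II and digested with trypsin, the remaining tissue was digested with collagenase A, and the cells were combined before capture. By the study's methods the pooled mice were told apart with the Souporcell algorithm, and an assignment of cells to mice was not used here.

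The libraries held 16450 UW cells with 367166822 UMIs (unique molecular identifiers, each marking 1 captured transcript) and 12417 W cells with 289586482 UMIs. The median was 22014 UMIs per UW cell and 20290 per W cell, and 52 cell barcodes occurred in both libraries. With 1 library per condition and no assignment of cells to mice used here, no difference was set against the spread between animals, so no p-value is given, and a difference between W and UW cannot be told apart from a difference between these particular libraries. Levels are given as CPM, the UMIs of a gene per 1000000 UMIs of a cluster in a library, with exact Poisson 95% intervals. Ratios carry exact 95% intervals and shares of cells carry Clopper-Pearson 95% intervals, and all of these cover counting error only.

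Plasmin is the blood-borne protease that dissolves fibrin and loosens the provisional matrix of a wound, and it is made from plasminogen by urokinase or by tissue plasminogen activator. Urokinase bound to its receptor acts at the surface of migrating cells, whereas tissue plasminogen activator is best known for acting on fibrin. The inhibitors are serpins, which trap an activator in a covalent complex, and mice that lack plasminogen close corneal epithelial wounds slowly.

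*Plau* (ENSMUSG00000021822.3) lies at chr14:20836660-20843385 on the plus strand of GRCm38, *Plat* (ENSMUSG00000031538.6) at chr8:22757727-22782844 on the plus strand and *Plaur* (ENSMUSG00000046223.10) at chr7:24462484-24475968 on the plus strand. *Serpine2* (ENSMUSG00000026249.10) lies at chr1:79794197-79861180 on the minus strand and *Serpinb2* (ENSMUSG00000062345.10) at chr1:107511423-107535478 on the plus strand. None of the 5 overlapped another gene of the matrix by that annotation. The 250 bases before the RefSeq start of transcription (GRCm38.p6) are shown for *Plaur*, *Serpine2* and *Serpinb2*, the receptor and the inhibitors whose level differed by 2-fold or more in most epithelial clusters. *Plau* and *Plat* had no entry in the promoter table used here. The windows are chr7:24462233-24462482 (plus strand) for *Plaur*, chr1:79858666-79858915 (minus strand) for *Serpine2* and chr1:107511173-107511422 (plus strand) for the more upstream of the RefSeq starts of *Serpinb2*, each written 5′ to 3′ along its own strand. Capitals mark a match to the AP-1 letters TGANTCA or to the TATA box letters TATAAA, searched on both strands.
Plaur: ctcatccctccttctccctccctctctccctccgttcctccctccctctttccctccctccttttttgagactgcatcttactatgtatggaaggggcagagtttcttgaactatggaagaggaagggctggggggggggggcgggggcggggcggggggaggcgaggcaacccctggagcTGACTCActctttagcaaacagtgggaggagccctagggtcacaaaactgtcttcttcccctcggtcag
Serpine2: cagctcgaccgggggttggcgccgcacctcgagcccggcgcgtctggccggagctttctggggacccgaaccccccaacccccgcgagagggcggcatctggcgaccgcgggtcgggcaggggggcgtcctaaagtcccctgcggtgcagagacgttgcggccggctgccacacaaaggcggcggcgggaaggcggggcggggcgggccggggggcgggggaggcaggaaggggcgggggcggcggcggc
Serpinb2: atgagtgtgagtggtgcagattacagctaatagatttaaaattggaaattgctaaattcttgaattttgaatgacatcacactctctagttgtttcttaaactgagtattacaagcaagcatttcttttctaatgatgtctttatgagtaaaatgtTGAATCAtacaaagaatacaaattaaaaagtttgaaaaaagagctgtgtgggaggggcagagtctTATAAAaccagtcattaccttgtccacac

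The AP-1 letters began 69 bases before the start of *Plaur* (TGACTCA) and 94 bases before that of *Serpinb2* (TGAATCA), and 6.75% of the 32851 promoter windows of the table held a match. The TATA letters began 29 bases before the start of *Serpinb2*, and 12.4% of windows held them. The GC box letters GGGCGG, not capitalised above, occurred 6 times before *Serpine2*, 3 times before *Plaur* and not before *Serpinb2*, and 32.7% of windows held at least 1. The GC content was 78.8% for *Serpine2*, 59.6% for *Plaur* and 32.4% for *Serpinb2*, beside a median of 52.4% over all windows, and 2.603% of windows had a lower GC content than that of *Serpinb2*. The CRE letters TGACGTCA, held by 1.55% of windows, occurred in none of these. All matches are of letters only, and binding was not measured.

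The deposited clusters were described by markers of corneal cells. Clusters 1 to 6, 8, 9 and 11 scored highest for the corneal epithelial list, with 9 of its 9 markers detected. Within these, the highest-scoring list was limbal for cluster 9, basal for cluster 3, cycling for clusters 8 and 11, suprabasal for clusters 1 and 4, superficial for clusters 2 and 6 and conjunctival for cluster 5. Cluster 7, led by the cornified envelope genes *Lce3a* and *Crct1* and by *Krt23*, did not score highest for the epithelial list and was kept with these 10 clusters for its leading genes. The leading genes of cluster 9 (*Wfdc18*, *Dlk2*) held no epithelial marker and 1 of the corneal endothelial list (*Car12*), so members are compared cluster by cluster, and the sum over the 10 clusters, called the epithelial clusters here, is a sum over cluster numbers. Cluster 0 was stromal-like (*Kera*). Cluster 10 is unnamed: it was led by *Penk*, *Myoc*, *Wisp2*, *Igfbp6* and *Col8a1* and scored close for the endothelial and stromal lists, and *Serpine2* is itself among its 10 leading genes. Clusters 13 to 16 held 710, 354, 251 and 215 W cells, against 1, 7, 0 and 7 UW cells. Cluster 13 (*Ccl3*, *Stfa2l1*, *Acod1*) scored highest for neutrophil markers, with a median of 2510 UMIs per W cell. Cluster 14 was led by *H2-Aa*, *Cd74* and *C1qa*, cluster 15 was monocyte-like (*Pf4*, *Lyz2*, *Fcgr1*), and cluster 16 was led by *Cd3g*, *Gzma* and *Nkg7*. Cluster 17 held 29 W cells and is not described.

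The 5 genes were held by different cells. In UW, 97.7% of all *Plau* UMIs, 99.1% of *Plaur* UMIs and 99.5% of *Serpinb2* UMIs lay in the epithelial clusters, which made up 82.1% of cells. *Plat* was shared with the stroma: 72.9% of its UW UMIs lay in the epithelial clusters and 21.9% in cluster 0. *Serpine2* was the exception, with 78.6% of its UW UMIs in cluster 10 and a further 10.7% in cluster 9. In W the epithelial clusters made up 68.5% of cells, and their share was 93.1% for *Plau*, 71.4% for *Plat*, 85.7% for *Plaur*, 21.1% for *Serpine2* and 82.7% for *Serpinb2*. Clusters 13 to 16, 0.0912% of UW cells and 12.3% of W cells, held 16.1% of the W UMIs of *Serpinb2*, 12.4% of those of *Plaur*, 5.38% of *Plau*, 1.55% of *Serpine2* and 1.20% of *Plat*.

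**Figure D1:**
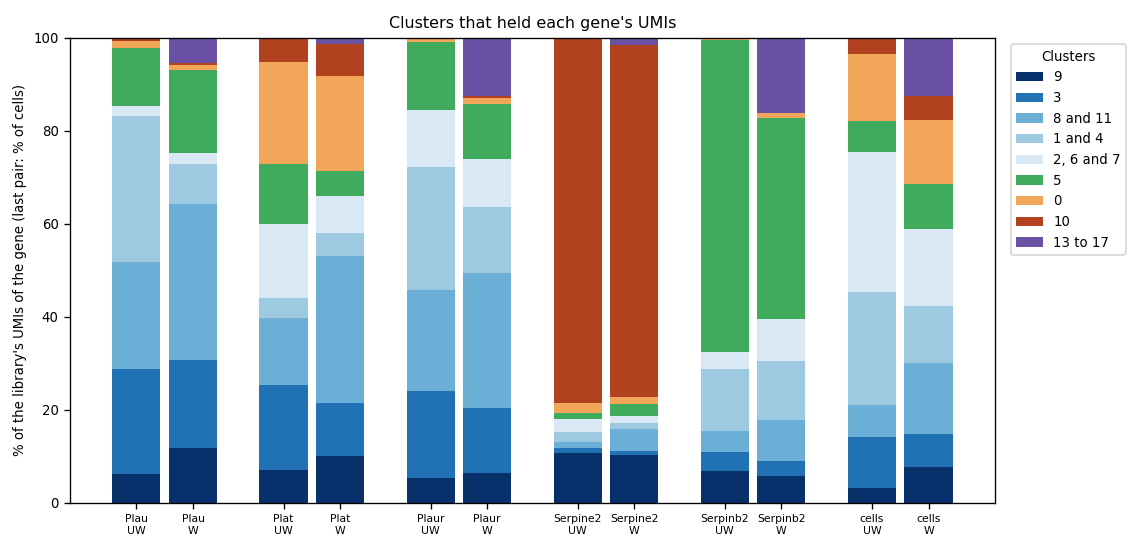
Stacked bars give the percentage of each gene's UMIs that lay in each group of clusters, by library (UW, W), and the last pair of bars gives the percentage of cells. *Serpine2* lay mostly in cluster 10 (78.6% in UW, 75.7% in W), and cluster 5 held the largest share of *Serpinb2* (67.0% in UW, 43.1% in W).

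*Plau*, the urokinase that cleaves plasminogen at the cell surface, was higher in W in every epithelial cluster where it could be compared. Over the epithelial clusters it had 972 UMIs and 2.92 CPM in UW and 3736 UMIs and 15.6 CPM in W, a log2 ratio of 2.42 (95% interval 2.32 to 2.52). In UW it was highest in the cycling clusters 8 (9.38 CPM) and 11 (8.31), in limbal cluster 9 (8.01) and in basal cluster 3 (6.90). It was lower in conjunctival cluster 5 (4.57) and suprabasal clusters 1 (4.45) and 4 (1.44), and at 0.25 CPM or less in clusters 2, 6 and 7. The order followed the layers of the epithelium from basal to superficial, and the intervals of clusters 8, 11, 9 and 3 overlapped one another.

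In W the highest *Plau* level was in basal cluster 3 (33.5 CPM, interval 31.2 to 36.0, 757 UMIs), above the 19.9 CPM of cluster 5, 19.6 of cluster 11, 19.5 of cluster 8 and 19.1 of cluster 9, whose intervals overlapped. The suprabasal clusters followed with 12.6 CPM in cluster 1 and 7.33 in cluster 4. The superficial and terminal clusters 2, 6 and 7 stayed lowest among the epithelial clusters, at 2.80, 0.94 and 1.26 CPM. In cluster 3 a *Plau* UMI was found in 9.89% of 1789 UW cells and 40.1% of 885 W cells, and after thinning each cell to 5000 UMIs in 2.99% and 12.9%. In cluster 0, where the level was low, the shares were 0.675% and 2.39%. The median depth was 18682 and 23906 UMIs per cell in cluster 3 and 11853 and 17588 in cluster 0.

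A gene was counted as higher or lower when its CPM differed by at least 2-fold between the libraries and it had at least 20 UMIs over both. By this rule *Plau* was higher in W in 8 of the 8 epithelial clusters with enough UMIs, by 2.08-fold (cluster 8) to 11.3-fold (cluster 2). Clusters 6 (3 and 14 UMIs) and 7 (4 and 15 UMIs) held too few. Of all genes with enough UMIs, 14.7% were higher by this rule in cluster 1, 13.2% in cluster 2, 15.1% in cluster 3, 13.8% in cluster 4, 12.7% in cluster 5, 17.2% in cluster 6, 23.2% in cluster 7, 10.9% in cluster 8, 9.12% in cluster 9 and 12.7% in cluster 11. Over the sum of the epithelial clusters the share was 21.8%. The log2 ratio of *Plau* was 2.28 (2.07 to 2.503) in cluster 3 and 1.26 (0.87 to 1.66) in cluster 9. The unweighted mean of the cluster levels gave 1.65.

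Outside the epithelium *Plau* was low in cluster 0 (0.56 CPM in UW, 1.33 in W) and cluster 10 (1.23 and 2.04 CPM, 7 and 17 UMIs). In these clusters 30.1% and 70.3% (cluster 0, UW and W) and 15.9% and 53.9% (cluster 10) of the level equalled what free epithelial RNA would carry, judged by the *Krt12* UMIs found there. *Krt12*, the corneal epithelial keratin, gave a UMI in 99.98% of cells of each library. In W, *Plau* stood at 30.0 CPM in cluster 13, 24.4 in cluster 14 and 25.1 in cluster 15, with 15.1%, 31.3% and 6.29% of that expected from free epithelial RNA. Cluster 16 had 3 UMIs, close to the expected free level.

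**Figure D2:**
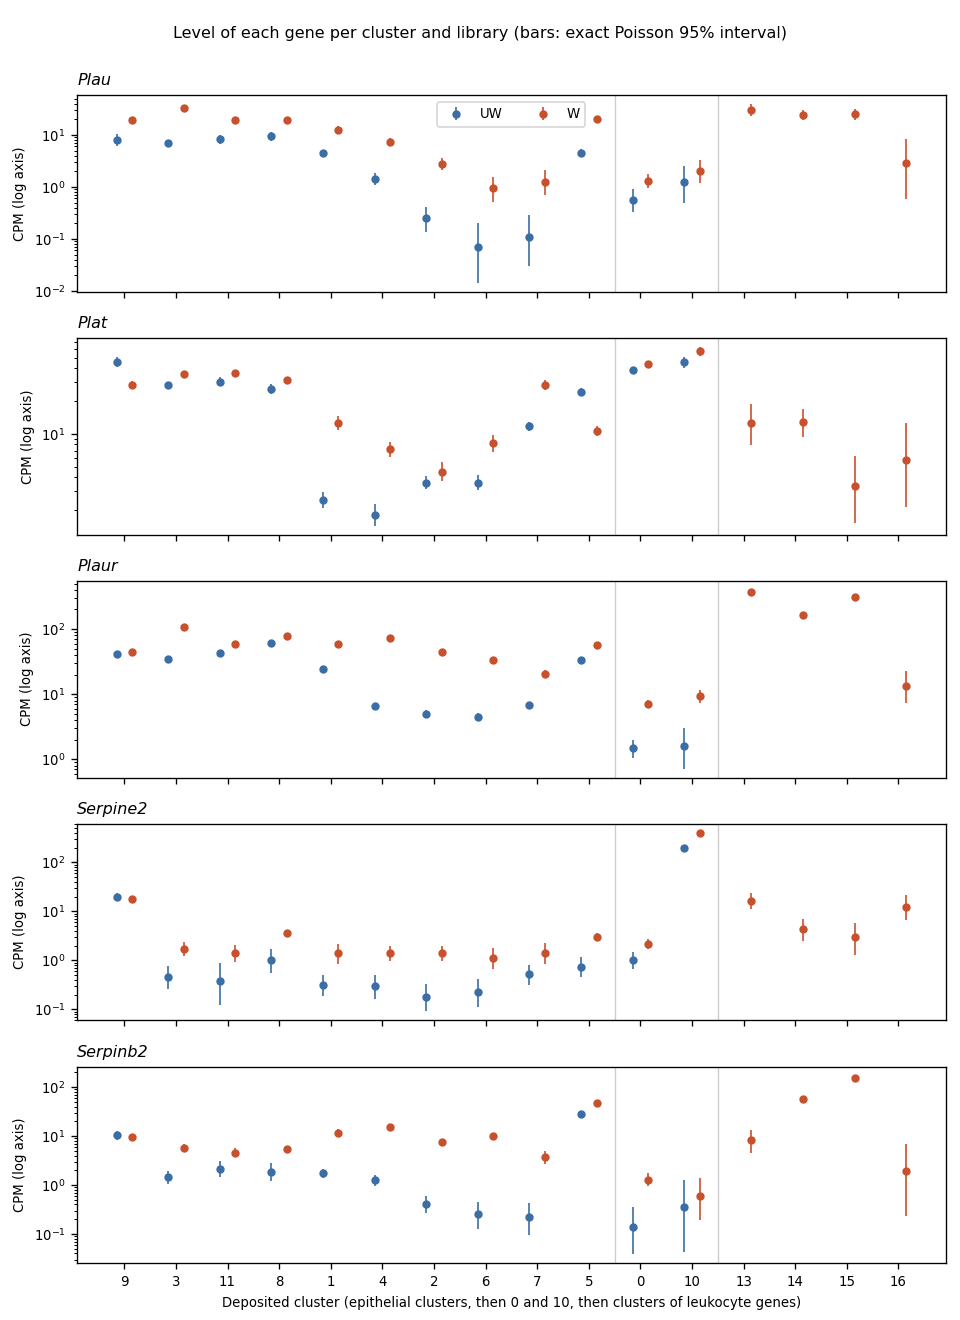
Points give the CPM of each gene (log axis) in each deposited cluster with at least 50 cells in the library, UW in blue and W in red, and bars give exact Poisson 95% intervals. *Plau* was lower in the superficial than in the basal and cycling clusters in both libraries, *Plat* was low in clusters 1, 4, 2 and 6, and *Serpine2* was high in clusters 9 and 10.

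*Plat*, the tissue-type activator, did not move one way across the epithelium. It was higher in W in 4 of 10 epithelial clusters (1, 4, 6 and 7), lower in 1 (cluster 5) and within 2-fold in the other 5. The largest ratios were in suprabasal clusters 1 (2.46 to 12.6 CPM, log2 ratio 2.36, interval 2.03 to 2.69) and 4 (1.81 to 7.24 CPM, 4.01-fold). The terminal cluster 7 went from 11.8 to 28.3 CPM (1.26) and superficial cluster 6 from 3.56 to 8.26 CPM (1.21). In the basal and cycling clusters the levels were closer, at 28.2 and 35.7 in cluster 3, 26.0 and 31.0 in cluster 8, and 30.3 and 36.1 in cluster 11.

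The opposite direction was found in limbal cluster 9 and conjunctival cluster 5. In cluster 9 *Plat* stood at 46.1 CPM in UW, the highest epithelial value of that library, and at 28.4 CPM in W (log2 ratio -0.70, interval -0.88 to -0.51). The share of cluster 9 cells with a *Plat* UMI was 34.7% in UW and 36.7% in W, and 17.2% and 11.9% after thinning to 5000 UMIs. In cluster 5 it stood at 24.5 CPM in UW (660 UMIs) and 10.6 CPM in W (385 UMIs), a log2 ratio of -1.20 (-1.39 to -1.02), where 7.47% of all genes were lower by the same rule. The share of cluster 5 cells with a UMI was 16.8% and 16.5%, at median depths of 24009 and 28144 UMIs, and 7.88% and 3.50% after thinning. The tenth of cells with the most *Plat* UMIs held 88.6% of them in UW and 79.7% in W, so a minority of the conjunctival cells held most of the transcript in both libraries. Over the epithelial clusters *Plat* was 11.04 CPM in UW and 21.1 in W (0.93, interval 0.87 to 0.99), and 0.19 by the unweighted mean of the cluster levels.

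In the stroma-like cluster 0 *Plat* was 38.8 CPM in UW and 44.3 in W (log2 ratio 0.19, interval 0.08 to 0.31), found in 30.8% and 47.0% of cells, and in 16.01% and 18.2% after thinning. In cluster 10 it was 45.5 and 57.6 CPM (0.34, interval 0.12 to 0.56). The epithelial free RNA expected there by *Krt12* was at most 2.83% of these levels. In clusters 13 to 16 of W it was 3.32 to 12.8 CPM, of which 48.8% to 80.9% was the level expected from free epithelial RNA.

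**Figure D3:**
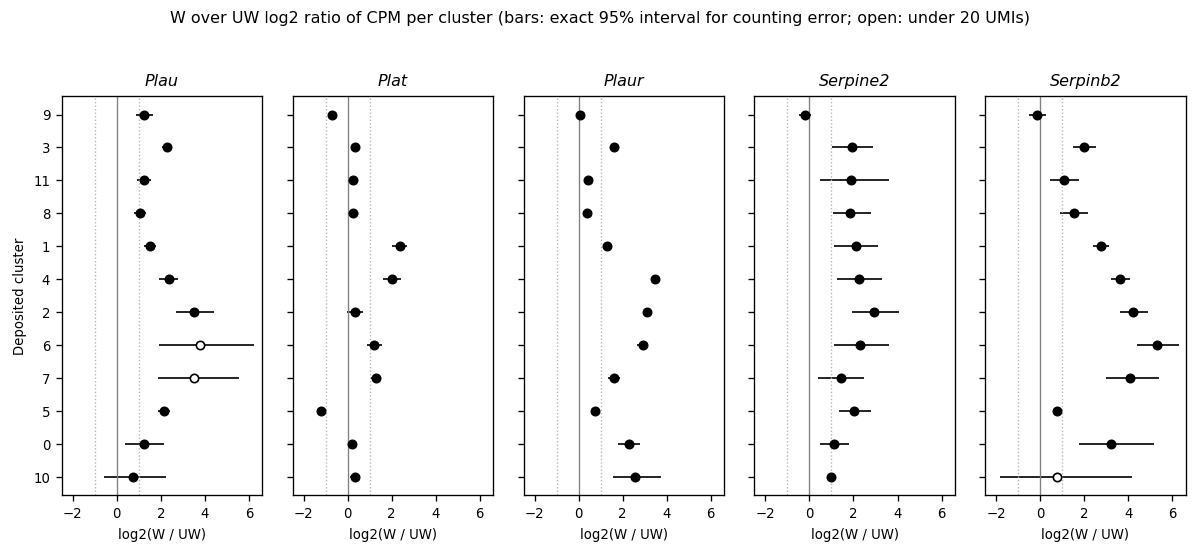
Points give the W over UW log2 ratio of CPM of each gene per cluster with exact 95% intervals for counting error, open points have under 20 UMIs over both libraries, and dotted lines mark 2-fold. *Plau* lay to the right of 0 in all 10 epithelial clusters, *Plat* lay to the left in clusters 9 and 5, and in cluster 9 *Plaur*, *Serpine2* and *Serpinb2* had intervals that included 0.

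*Plaur* encodes the lipid-anchored receptor that holds urokinase at the cell surface. Over the epithelial clusters it had 6084 UMIs and 18.3 CPM in UW and 14809 UMIs and 62.0 CPM in W, a log2 ratio of 1.76 (1.72 to 1.80), and 1.14 by the unweighted mean of the cluster levels. In UW the order was cycling cluster 8 (60.5 CPM), cluster 11 (43.2), limbal cluster 9 (41.9), basal cluster 3 (35.1), conjunctival cluster 5 (33.5), suprabasal cluster 1 (24.0), and then terminal cluster 7 (6.81), suprabasal cluster 4 (6.51) and superficial clusters 2 (5.06) and 6 (4.53). The intervals of clusters 11 and 9 overlapped, as did those of 3 and 5, of 7 and 4, and of 2 and 6.

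In W basal cluster 3 had the highest epithelial level (107 CPM, interval 103 to 111), and 66.1% of its cells held a UMI against 31.7% in UW. Cluster 8 followed with 78.9 CPM and cluster 4 with 72.4. Clusters 11, 1 and 5 stood at 58.0, 57.9 and 56.7 CPM with overlapping intervals, clusters 9 and 2 at 44.4 and 44.1, cluster 6 at 34.0 and cluster 7 at 20.8. Clusters 4, 2 and 6, which were low in UW, had the largest ratios: the log2 ratio was 3.48 (11.1-fold) in cluster 4, 3.13 in cluster 2 and 2.91 in cluster 6. It was 1.61 in cluster 3, 0.76 in cluster 5, 0.43 in cluster 11, 0.38 in cluster 8 and 0.08 (-0.10 to 0.27) in cluster 9. *Plaur* was thus counted as higher in 6 of 10 epithelial clusters, and its interval lay above 0 in 9.

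The highest *Plaur* levels of all lay in the clusters of leukocyte genes in W. Cluster 13 stood at 371 CPM (344 to 400), with a UMI in 355 of 710 cells, and monocyte-like cluster 15 at 308 CPM (287 to 329), with a UMI in 79.7% of 251 cells. Cluster 14 had 164 CPM (152 to 178) and cluster 16 had 13.5 CPM. The level expected from free epithelial RNA was 4.85% of that in cluster 13, 18.4% in cluster 14, 2.03% in cluster 15 and 78.4% in cluster 16. In cluster 0 *Plaur* was 1.48 CPM in UW and 7.15 in W, of which 71.9% and 51.6% equalled the expected free level, and in cluster 10 it was 1.58 and 9.38 CPM. It was higher by the 2-fold rule in both, where 7.34% (cluster 0) and 4.97% (cluster 10) of all genes were.

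Transcripts of the neutrophil marker list were also found in the epithelial clusters of W. Whether they came from neutrophils or from the epithelial cells themselves was not tested. The 5 neutrophil markers summed to 23.0 CPM in UW, with 1 of them at 0, and to 697 CPM in W, with none at 0, and ranged from 2.03 to 155 CPM between the UW clusters and from 352 to 1050 CPM between the W clusters. Scaled by *S100a8*, the RNA of cluster 13 would carry 4.25 CPM of *Plaur*, 6.86% of the 62.0 CPM of the epithelial clusters in W. For *Plau* the same calculation gave 2.20% and for *Serpinb2* 0.669% of the W level.

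*Serpine2* encodes protease nexin-1, a secreted serpin that inhibits thrombin, urokinase and tissue plasminogen activator. Its level in cluster 10 was 197 CPM in UW (186 to 209, 1126 UMIs in 565 cells) and 393 CPM in W (379 to 406, 3266 UMIs in 632 cells). The ratio was 1.99-fold (1.86 to 2.13, log2 ratio 0.99), just under the 2-fold rule. The log2 ratio was 0.31 by the mean of cell CPM and 0.42 after thinning, and it passed 2-fold with library factors by TMM or median-of-ratios (1.11 by the latter) and with a stricter filter on cells (1.09). A UMI was found in 16.8% of UW cells and 29.0% of W cells, and in 13.2% and 21.9% after thinning to 5000 UMIs. Single cells held up to 123 UMIs in UW and 190 in W, and the tenth of cells with the most held 95.03% and 91.0% of all, so most cells of cluster 10 had none and a few had many.

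Many of these cells also held *Myoc*, which encodes the secreted protein myocilin: of the cells with 5 or more *Serpine2* UMIs, 36 of 49 in UW (73.5%) and 70 of 90 in W (77.8%) had a *Myoc* UMI. A split of cluster 10 at 5 *Myoc* UMIs per cell, chosen after the values were seen, put 58 UW cells (10.3%) and 113 W cells (17.9%) in the upper group. In that group *Serpine2* was 1340 CPM in UW and 1549 CPM in W (log2 ratio 0.21, interval 0.10 to 0.32), found in 70.7% and 69.0% of its cells, and it held 78.8% and 84.3% of the cluster's *Serpine2* UMIs. In the other 507 UW and 519 W cells it was 47.3 and 78.4 CPM (0.73, interval 0.50 to 0.96). The shares of cells in the upper group were not thinned, and the cells were deeper in W, with a median of 9208.5 and 12860 UMIs in the upper group and 9288 and 12066 in the other.

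**Figure D4:**
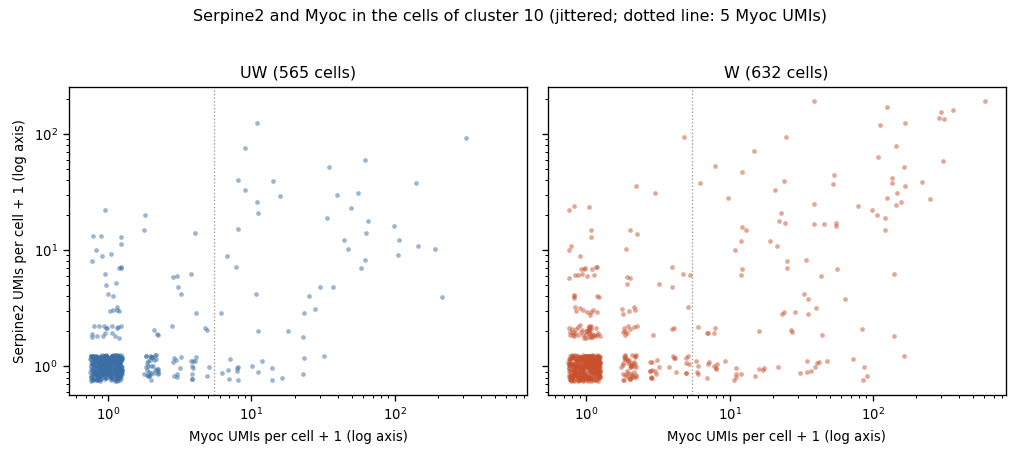
Each point is a cell of cluster 10, with its *Myoc* UMIs plus 1 on the x axis and its *Serpine2* UMIs plus 1 on the y axis (both log axes, jittered), UW left and W right, and the dotted line marks 5 *Myoc* UMIs. Cells to the right of the line were 10.3% of the UW and 17.9% of the W cells and held 78.8% and 84.3% of the *Serpine2* UMIs.

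Limbal cluster 9 was the other place of *Serpine2*. It stood at 20.1 CPM in UW (17.03 to 23.5) and 17.6 CPM in W (16.02 to 19.4), a log2 ratio of -0.19 (-0.46 to 0.09), and the share of cells with a UMI was 16.7% and 25.1%, or 8.32% and 6.42% after thinning. In the other 9 epithelial clusters it was 0.18 to 1.02 CPM in UW and 1.14 to 3.70 CPM in W. It was counted as higher in W in all 9, by 2.72-fold to 7.72-fold, from 5 to 20 UMIs in UW and 17 to 180 UMIs in W.

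Those low levels were set beside what RNA freed from cluster 10 would carry, scaled by the *Myoc* UMIs in each cluster. In UW the expected level was 65.4% to 116% of the observed one in clusters 1, 2, 3, 4, 6, 7 and 11, 44.6% in cluster 8 and 31.2% in cluster 5, against 2.33% in cluster 9. In W it was 45.2% to 75.9% in clusters 1, 2, 3, 4, 6, 7 and 11, 24.0% in cluster 5 and 17.1% in cluster 8, and 4.13% in cluster 9. In stroma-like cluster 0, at 1.02 CPM in UW and 2.19 in W, it was 87.7% and 82.6%. Clusters 9, 5 and 8 in W were the epithelial clusters with 24.0% or less of the level expected from that source.

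**Figure D5:**
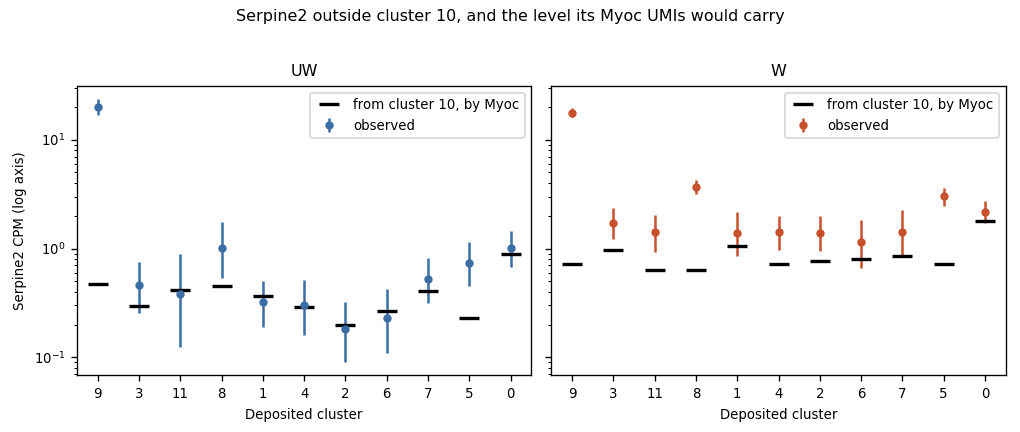
Points give the *Serpine2* CPM (log axis, bars exact Poisson 95% intervals) in each epithelial cluster and cluster 0, UW left and W right, and black dashes give the level that RNA from cluster 10 would carry by its *Myoc* UMIs. In UW the dashes lay inside or near the intervals of most clusters, and in cluster 9 the observed 20.1 and 17.6 CPM lay far above them.

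*Serpinb2* encodes plasminogen activator inhibitor 2, a serpin that inhibits urokinase and is largely kept inside the cell. Conjunctival cluster 5 had its highest epithelial level in both libraries, 28.6 CPM in UW (770 UMIs) and 48.2 in W (1743 UMIs), a log2 ratio of 0.75 (0.63 to 0.88), and 18.5% of 1100 UW cells and 36.4% of 1201 W cells held a UMI. Limbal cluster 9 came next in UW with 10.4 CPM and stood at 9.48 CPM in W (-0.13, interval -0.50 to 0.26). Every other epithelial cluster was at 2.15 CPM or less in UW.

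In W the suprabasal clusters 4 and 1 reached 15.4 and 11.8 CPM, superficial clusters 6 and 2 reached 9.87 and 7.65 CPM, and clusters 3, 8, 11 and 7 stood at 5.71, 5.36, 4.57 and 3.77 CPM. *Serpinb2* was higher in W by the 2-fold rule in 8 of 10 epithelial clusters. The ratio was largest in the superficial and terminal clusters, where UW held almost none: 11 and 147 UMIs in cluster 6 (39.1-fold, interval 21.2 to 80.0), 25 and 175 UMIs in cluster 2 (18.6-fold) and 8 and 45 UMIs in cluster 7 (17.1-fold). In cluster 4 it was 12.3-fold and in cluster 1 it was 6.80-fold, while basal cluster 3 (3.98-fold) and cycling clusters 8 (2.86-fold) and 11 (2.12-fold) had smaller ratios. Over the epithelial clusters the level was 3.43 CPM in UW and 13.995 in W (log2 ratio 2.03, interval 1.93 to 2.13), and the unweighted mean of the cluster levels gave 1.33.

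Outside the epithelium *Serpinb2* was found in a few leukocyte-like cells of W with many UMIs each. Monocyte-like cluster 15 stood at 157 CPM (142 to 172), with a UMI in 51 of 251 cells (20.3%), and 21 cells with 5 or more UMIs held 86.8% of the UMIs. Cluster 14 stood at 57.3 CPM (49.8 to 65.5), with a UMI in 28 of 354 cells (7.91%), and 13 cells with 5 or more held 89.6%. The level expected from free epithelial RNA was 0.901% of that in cluster 15 and 11.97% of that in cluster 14, and RNA of cluster 15 scaled by *Pf4* would give 38.1% of the cluster 14 level. Clusters 13 (8.17 CPM) and 16 (1.92 CPM) were low. In cluster 0 it was 0.14 CPM in UW and 1.29 CPM in W (4 and 42 UMIs), and 64.4% of the W level equalled the expected free level.

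Cells with and without a UMI of a member were compared within the epithelial cluster and library where that member was highest. This is a description, since cells of 1 library are not replicates and cells with a UMI were often deeper. In basal cluster 3 of W, the 585 cells with a *Plaur* UMI (median 24893 UMIs) had more *Dynap* (273 against 35.2 CPM), *Ppbp* (434 against 59.1), *Igfbp3* (94.5 against 19.0), *Cxcl3* (130 against 26.4) and *Krt8* (60.2 against 13.2) than the 300 cells without (median 22895 UMIs). *Dynap* and *Ppbp* are among the leading genes of the cluster. In a list of 28 genes of wound epithelium, 23 were higher in the cells with *Plaur* and 8 by 2-fold or more, where 35.0% of all genes were higher and 1.45% by 2-fold, with a median log2 ratio of 0.59 beside -0.10 over all 11650 genes. Among the 8 were the cornified envelope gene *Sprr1b* (95.3 against 25.5 CPM), the AP-1 subunit gene *Fosl1* (110 against 34.0), *Ptgs2* (139 against 45.3), *Mmp10* (24.9 against 7.58), *Mmp13* (30.2 against 9.80), *Il1a* (184 against 65.7) and *Areg* (384 against 149). The 5 that were not higher were *Fn1*, *Itga3*, the keratin *Krt6a* (3989 against 4275 CPM), *Myc* and *Mmp3*.

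The 355 cells of the same cluster with a *Plau* UMI (median 27778 UMIs) had more *Cxcl3* (158 against 48.0 CPM), *Igfbp3* (113 against 36.5), *Fst* (72.9 against 28.5), *Hmga2* (62.6 against 26.0) and *Ppbp* (469 against 196) than the 530 cells without (median 22299). Of the wound list 21 of 28 were higher and 3 by 2-fold or more, among them *Mmp13* and *Mmp10*, where 45.8% of all genes were higher and 0.343% by 2-fold, with a median of 0.30 beside -0.02 over all genes. In UW the *Plaur* cells of cluster 3 had a wound-list median of 0.33 over 22 counted genes, beside -0.10 over all genes, and the *Plau* cells had 0.07 beside -0.04.

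For the other members some of these genes came up again. In limbal cluster 9 of UW the 87 cells with *Serpine2* had more *Wfdc18* (222 against 23.8 CPM), *Igfbp3* (135 against 17.4), *Flrt2* (53.2 against 9.94), *Cxcl10* (61.0 against 15.1) and *Ptprz1* (55.5 against 16.4) than the 434 cells without, and *Wfdc18* is a leading gene of the cluster. Few cells carried that difference, since 17 of the 87 (19.5%) held a *Wfdc18* UMI, and in W *Wfdc18* was 968 against 451 CPM. Among genes with at least 50 CPM in the cells with *Plat*, those highest by ratio in that cluster and library were *Tomm40*, *Ajuba*, *Cnot4*, *Micu2* and *Kit*, at most 1.41-fold higher than in the cells without *Plat*, and in W the first was *Spon2* (2.51-fold). In conjunctival cluster 5 of W the 437 cells with *Serpinb2* (median 33671 UMIs, against 25727 in the 764 cells without) had more *Cxcl3* (113 against 45.1), *Sprr2f* (120 against 49.6), *Ppbp* (65.5 against 31.4), *Spink5* (265 against 131) and *Gm94* (64.5 against 32.0). Clusters 14 and 15 were added after their values were seen. The 51 cells of monocyte-like cluster 15 with *Serpinb2* were led by *2010005H15Rik* (193 against 1.47 CPM), *Lyz1* (406 against 43.5), the neutrophil marker *S100a8* (475 against 55.7), *Csf3* (318 against 39.1) and *Slpi* (2117 against 262), and *Mmp8*, a neutrophil collagenase, was 119 against 19.1 CPM. Of the monocyte markers, *Lyz2* (26350 against 16095 CPM) and *Itgam* (578 against 385) were also higher in them and *Csf1r* (170 against 234) was lower. *Arg1* was 2162 against 1065 CPM. *Serpinb2* itself was 8.17 CPM in cluster 13, which scored highest for neutrophil markers, and this lay below its level in cluster 15. The source of the neutrophil-type transcripts in the 51 cells was not tested. The 28 cells of cluster 14 with *Serpinb2* were led by *2010005H15Rik* (209 against 4.04 CPM), *Cxcl5* (317 against 6.22), *Serpina3n* (192 against 7.46), *Csf3* (168 against 8.40) and *Tnc* (55.3 against 2.80), followed by *Mmp3* (2154 against 159) and *Thbs2* (147 against 11.2). Of the monocyte markers, *Lyz2* (13999 against 4751 CPM) and *Itgam* (243 against 129) were higher in them and *Csf1r* (46.8 against 125) was lower. Stromal *Kera* was 55.3 against 28.6 CPM, in 9 of the 28 cells. *Mmp3* and *Serpina3n* were high in clusters 0 and 10 of W, where *Serpinb2* was 1.29 and 0.60 CPM, beside 57.3 CPM in cluster 14. The source of the *Mmp3* and *Serpina3n* in the 28 cells was not tested.

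In some epithelial clusters of W, urokinase and its receptor were found in the same cells somewhat more often than the product of their single shares. In cells thinned to 5000 UMIs, 6.94% of cluster 3 cells of W (interval 5.33 to 8.84) held both, beside a product of 4.34%. In cluster 8 the values were 4.34% (3.30 to 5.59) beside 2.64%, in cluster 9 2.42% (1.54 to 3.61) beside 1.38%, and in cluster 5 2.13% beside 2.10%. In cluster 11 the share was 2.88% with an interval (1.65 to 4.63) that included the product of 2.33%. The share lay below the product in cluster 14 (3.91% beside 4.43%) and cluster 15 (6.20% beside 6.74%), with intervals that included it. Without thinning, 32.1% of the cluster 3 cells of W held both. For *Plaur* and *Serpinb2* the share was 4.35% (3.25 to 5.68) beside 3.16% in cluster 5 and 13.6% (9.58 to 18.6) beside 10.8% in cluster 15. For *Plat* and *Plaur* in cluster 3 it was 4.28% beside 5.27%.

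Likeness of pattern was measured as Pearson's r of log2(CPM + 1) over 28 sums of a cluster and library with at least 50 cells, which share libraries and depth, so r is given as a description. The patterns of *Plau* and *Plaur* were alike (r = 0.88), *Plaur* and *Serpinb2* less so (0.78), then *Plau* and *Serpinb2* (0.68) and *Plat* and *Serpine2* (0.44), and the other pairs lay between -0.15 and 0.18. The 5 genes most like *Plau* were *Eif4a1* (0.90), *Car13*, *Plaur*, *Creb5* and *Ets2* (0.87). Those most like *Plat* were *Id3* (0.88), *Ltbp4*, *Timp3*, *Ptpn14* and *Smo* (0.81), and those most like *Plaur* were *Acp5* (0.85), *Ets2*, *Tes*, *Carhsp1* and *Il13ra1* (0.83). *Serpine2* was most like the cluster 10 genes *Igfbp7* (0.93), *Stc1*, *Myoc*, *Penk* and *Wisp2* (0.88), and *Serpinb2* most like *Tnip3* (0.85), *Filip1l*, *Plaur*, *Dtx2* and *Blvrb* (0.78).

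The other genes of plasminogen activation were read from a list of 57, of which 51 were in the matrix. *Plg*, *Vtn*, *Serpina5*, *Cpb2*, *Fga* and *Fgb* were not in the matrix used here, so plasminogen itself was not measured. In the epithelial clusters 44 had enough UMIs, of which 18 (40.9%) were at least 2-fold higher in W and 6 (13.6%) at least 2-fold lower. Of all genes there, 21.8% were higher and 8.77% lower. The median log2 ratio of the 44 was 0.50 beside 0.22 over all genes. Without the 5 members 14 and 6 of 39 were higher and lower, with a median of 0.44.

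Among the protease partners *Hpn* (0.26 to 0.86 CPM) and *Hgfac* (0.17 to 0.95) were higher at very low levels in the sum. *Hpn* was highest in cluster 9, where it was lower in W (7.48 and 4.22 CPM) and which held 521 UW and 956 W cells. Matriptase (*St14*), a membrane protease that can activate pro-urokinase, stood at 57.8 and 74.4 CPM. Of the receptors and binding partners 4 of 16 were higher and 3 lower, beside 21.8% and 8.77% of all genes. The laminin-binding integrin chain *Itga3* was 13.3 and 31.0 CPM in the sum. The endocytic receptors *Vldlr* (10.3 to 3.1002 CPM, log2 ratio -1.74) and *Sorl1* (139 to 50.2, -1.47) and the integrin chain *Itgam* (83.1 to 28.6, -1.54) were lower. Among the clusters with most *Itga3* it was higher in W in cluster 3 (50.1 and 103 CPM) but not in clusters 8 (54.2 and 50.2), 9 (46.7 and 33.1) and 11 (66.7 and 65.3). *Itgam* was highest in terminal cluster 7 (466 and 229 CPM), which made up 9.19% of UW and 4.25% of W cells, and was 144 and 117 CPM in cluster 6 and 30.3 and 32.4 in cluster 2. The plasminogen receptor *Plgrkt* stood at 68.2 and 94.5 CPM, and the plasminogen-binding *Anxa2* at 2555 and 2122 CPM, though within clusters the W level of *Anxa2* lay above the UW level in 8 of 10, by less than 2-fold in each, as in cluster 3 (1293 and 1757 CPM).

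Of the inhibitors 6 of 10 were higher and none lower, where 21.8% of all genes were higher and 8.77% lower. *Serpinb6a* went from 32.6 to 152 CPM (2.22), *Serpina3n* from 0.27 to 11.1 (5.36) and *Serping1*, the C1 inhibitor, from 6.79 to 16.5 (1.28). Between the epithelial clusters of W *Serping1* ranged from 13.4 to 19.7 CPM, beside 1242 in cluster 0 and 1995 in cluster 10, and *Serpina3n* from 4.28 to 31.01 CPM, beside 314 and 1040. In clusters 9 (25.9 and 19.7 CPM) and 8 (17.3 and 16.5), where *Serping1* was highest in UW, it was not higher in W. It was higher in W in each other epithelial cluster. The part of free RNA in these 2 inhibitors was not tested. Of the substrates and related genes the pro-metalloproteinase *Mmp3*, which plasmin can activate, went from 1.00 to 80.6 CPM (6.33), and its W level was 69.1 to 97.2 CPM in every epithelial cluster, beside 4515 in cluster 0 and 8631 in cluster 10, and the part of free RNA in it was not tested. In the same group *Tgfb1* was 8.14 and 17.8 CPM in the sum (1.13), but within the clusters where it was highest the difference was under 2-fold: 26.3 and 38.4 CPM in cluster 3, 31.2 and 32.5 in cluster 8, 31.8 and 33.6 in cluster 11, and 40.7 and 22.8 in cluster 9, where it was lower. Fibronectin (*Fn1*) went from 45.8 to 13.98 (-1.71), while tissue factor (*F3*) was 211 and 204 CPM. Of the Ly6/uPAR relatives of *Plaur*, *Lypd2*, a superficial epithelial marker here, went from 11132 to 2639 CPM (-2.08), and *Lypd3*, whose product resembles the receptor, was 643 and 572 CPM.

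In stroma-like cluster 0, 39 genes of the list had enough UMIs, and 9 were higher in W and 4 lower. Of all genes there, 7.34% were higher and 9.67% lower. Without the members 5 of 34 were higher and 4 lower. The median of the 39 was 0.04 beside -0.15 over all genes. Cluster 0 had the broad protease inhibitor *A2m*, a leading gene of the cluster, at 11710 and 5599 CPM (-1.06). With TMM or median-of-ratios factors, which raised every log2 ratio in cluster 0 by 0.14 and 0.17, *A2m* was no longer lower by 2-fold and 2 genes of the list were, and 9 were when any gene with at least 1 count was taken. *Mmp3* went from 4.22 to 4515 CPM (10.06), *Serpina3n* from 1.65 to 314 CPM (7.57) and thrombomodulin (*Thbd*) from 9.32 to 25.0 CPM. The clearance receptor *Lrp1*, which takes up complexes of activator and serpin, was 462 CPM in both libraries. In cluster 10, 4 of 37 genes were higher and 1 lower, where 4.97% of all genes were higher and 6.63% lower. Without the members 3 of 33 were higher and 1 lower. In this cluster *Mmp3* went from 875 to 8631 CPM and *Serpina3n* from 37.5 to 1040.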

How the data were processed

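Single cells of UW and W corneas were captured and sequenced on the 10x Genomics 3′ platform. The deposited matrix holds raw UMI counts, which the authors obtained with Cell Ranger 3.1.0 before filtering cells, removing doublets and clustering in Seurat. The labels name the mm9 genome and the study's methods an mm10 reference, and they also differ on the kit version. Positions are from GENCODE GRCm38, which was checked by gene name only (19908 of 20198 found). The study states more cells than the deposited tables hold. The deposited cluster numbers were used, and the 5 genes, marker lists and gene lists were chosen with earlier results of these data known.

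Counts were summed per cluster and library and divided by total UMIs. Clusters with at least 50 cells in both libraries were compared, and a gene was called at 2-fold with at least 20 UMIs. Cells were thinned to 5000 UMIs for shares. Free RNA was scaled by a source's defining gene (*Krt12*, *S100a8*, *Myoc*, *Pf4*). Genes named were the 5 members, list genes at 50 CPM or past 2-fold, the 5 most alike in pattern and the 5 highest by ratio in cells with a UMI (at least 50 CPM), while those of clusters 14 and 15 were named after their values were seen. Alternatives were TMM (edgeR 4.0.16) and median-of-ratios (DESeq2 1.42.0) scaling, a stricter cell filter (at least 1000 genes, at most 5% mitochondrial UMIs), removal of cells called doublets in any deposited run, mean cell CPM, thinning and unweighted cluster means. Python 3.11.15 with scipy 1.17.1 gave the exact intervals, and the scripts were tested on simulated data. Some genes of these lists are not reported here.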

Additional observations from a re-analysis of the deposited data

Results flagged for a closer look

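*Plat* moved in opposite directions between epithelial clusters under the same comparison. Its W over UW log2 ratio was 2.36 in suprabasal cluster 1, against -1.20 in conjunctival cluster 5 and -0.70 in limbal cluster 9. These clusters stood out because the single W library lay above the single UW library in cluster 1 and below it in clusters 5 and 9, and the difference between the clusters was not tested.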

How the results depend on the processing

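No paired analysis was possible because each condition had 1 library, and no replicate could be left out. The log2 ratios recomputed were those of the 5 members in the epithelial sum and in cluster 0, and of *Plau* and *Plaur* in cluster 3, *Plat* in clusters 5, 9 and 10, *Serpine2* in cluster 10 and *Serpinb2* in cluster 5, and all kept their direction under each alternative run for them. In clusters 3, 5 and 9 these were the stricter cell filter, doublet removal, mean cell CPM and thinning, without other scalings. In the epithelial clusters TMM and median-of-ratios scaling moved every gene by -0.22 and -0.23, which gave 2.20 and 2.19 for *Plau*, 0.71 and 0.70 for *Plat*, 1.54 and 1.53 for *Plaur*, 1.98 and 1.97 for *Serpine2* and 1.81 and 1.79 for *Serpinb2*. The stricter cell filter gave 1.00 for *Plat* and 1.72 for *Plaur*. The mean of cell CPM gave 2.20 for *Plau*, 0.67 for *Plat* and 1.79 for *Serpine2*, and thinning gave 2.19, 0.66 and 1.53. The unweighted mean over clusters gave 1.65 for *Plau*, 0.19 for *Plat*, 1.14 for *Plaur*, 0.50 for *Serpine2* and 1.33 for *Serpinb2*. In that mean each cluster weighs the same in both libraries, whereas in the sum the mix of clusters differed. Cluster 8 held 535 UW and 1332 W cells, and cluster 1 held 2461 and 591. The part of this mix in the ratios of the sum was not tested. Chosen after seeing the data, the sum without cluster 9 gave 1.85 for *Plaur*, 2.54 for *Serpine2* and 2.15 for *Serpinb2*, and the sum without clusters 7 and 9 gave 2.64 for *Serpine2*. In cluster 0 the scalings moved every gene by 0.14 and 0.17 and gave 0.34 and 0.36 for *Plat*, and thinning gave 1.79 for *Serpine2*. The number of listed plasminogen genes lower in cluster 0 was 4, and was 9 with any gene of at least 1 count and 2 under either scaling. In cluster 10 the log2 ratio of *Serpine2* ran from 0.31 (mean of cell CPM) to 1.11 (median-of-ratios), and it passed 2-fold under both scalings, which moved every gene there by 0.11 and 0.12, and under the stricter filter. For the other moved values the cause was not tested. Of the 5 genes most like each member, those also found with Spearman's rho numbered 2 for *Plau*, 1 for *Plat*, 2 for *Plaur*, 0 for *Serpine2* and 2 for *Serpinb2*. Low counts limit *Plau* in clusters 6, 7 and 10, *Serpinb2* in clusters 0 and 10 and *Serpine2* outside clusters 9 and 10.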
